A study of Rattus norvegicus with 2 samples.

Results

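Melanin and pigment epithelium genes were compared between a control and an ischemic rat retina, to describe how much signal of pigmented tissue each library held. The members were the 10 genes Tyr, Tyrp1, Dct, Pmel, Mlana, Mitf, Oca2, Slc45a2, Best1 and Ttr, taken by symbol from a table of 32662 genes, and all 10 were found. Total RNA depleted of ribosomal RNA was sequenced from 2 retinas of Long-Evans rats aged 2 months. The CTRL retina came from a sham procedure, and the IR12 retina was collected 12 h after reperfusion that followed ischemia. Long-Evans is a hooded strain with pigmented eyes. There was 1 library per group, so no difference between them has a replicate check and no test was possible. Whether pigment epithelium was kept or removed at dissection is not given in the sources used here.

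Melanin is made inside melanosomes, organelles in which a fibrillar protein matrix forms first and pigment is then laid down on it. Tyrosinase and its relatives carry out the chemistry, ion and solute transporters set the conditions inside the organelle, and the transcription factor MITF drives many of these genes. In the eye, melanin is made by the retinal pigment epithelium (RPE), by the pigmented epithelia of the ciliary body and iris, and by melanocytes of the choroid and iris stroma. The neural retina makes none, so these genes are commonly read as a sign of tissue carried over with it.

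Promoter sequences are shown because several members share the letters that MITF-family factors are known to bind, the M-box core CATGTG. RefSeq promoters on GRCr8 were matched for 9 of the 10 members, Slc45a2 having no entry, each running from 250 bases before to 50 bases after the annotated start. The Tyr stretch lies at chr1:150622858-150623017 on the minus strand, Tyrp1 at chr5:100327018-100327103 on the plus strand, Dct at chr15:101508121-101508206 on the minus strand and Mlana at chr1:236882831-236882916 on the plus strand. Each is written 5′ to 3′ along the gene with the core in capitals, and in Mlana the capitals mark CACATG, the same core read on the opposite strand.
Tyr: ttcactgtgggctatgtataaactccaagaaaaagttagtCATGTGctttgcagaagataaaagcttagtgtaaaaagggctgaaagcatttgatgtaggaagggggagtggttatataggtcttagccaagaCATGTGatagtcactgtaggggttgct
Tyrp1: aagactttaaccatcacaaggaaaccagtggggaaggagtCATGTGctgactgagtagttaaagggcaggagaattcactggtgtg
Dct: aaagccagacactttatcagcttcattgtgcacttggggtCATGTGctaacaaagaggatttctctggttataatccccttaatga
Mlana: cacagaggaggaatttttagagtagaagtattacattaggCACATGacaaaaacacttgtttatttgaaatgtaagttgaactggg

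Searched on both strands, CATGTG was present in 5 of 9 member promoters, namely Tyr, Tyrp1, Dct, Mlana and Best1, and in 14% of 33469 promoters of the same length. The Best1 match lay inside the 50 transcribed bases. The longer string TCATGTG, which contains CATGTG, was present in Tyr, Tyrp1, Dct and Mlana and in 3.56% of promoters. The E-box letters CACGTG were found in 0 of 9 members and in 6.42% of promoters. GGATTA, the letters of an OTX motif, was present in Tyrp1 and Dct and in 7.17% of promoters. The 3 enzyme promoters Tyr, Tyrp1 and Dct also shared the 9 letters TCATGTGCT, which contain both shorter strings and which were picked after the sequences had been read. Those letters were present in 68 promoters in all, or 0.203%. These matches describe letters in a window and not bound sites.

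**Figure D1:**
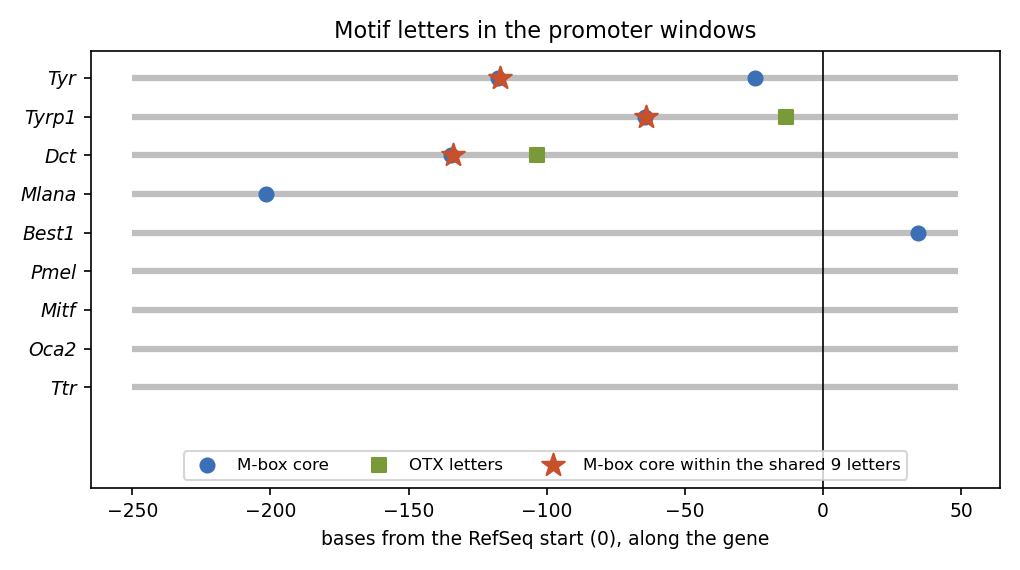
Positions of motif letters along the promoter windows of the 9 matched members, in bases from the RefSeq start at 0, with 1 symbol per match on either strand. The core lies 120 and 27 bases before the start in Tyr, 67 in Tyrp1, 137 in Dct and 204 in Mlana, and Pmel, Mitf, Oca2 and Ttr hold no match.

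Levels are given in FPKM as deposited, a unit of fragments scaled to transcript length and to library size. How library size was set before deposit was not established here. Ratios are log2 of IR12 over CTRL after adding 1 to both values, which understates differences of genes below an FPKM of about 1. By this measure 4 members were higher and 6 lower in IR12, and 0 of 10 were 2-fold higher and 0 of 10 were 2-fold lower. Of 13599 genes with an FPKM of at least 1 in either library, 7048 were higher and 6551 lower in IR12. In that set, 6.56% were at least 2-fold higher and 6.12% at least 2-fold lower. The median over the members was -0.08, with a range from -0.47 to 0.49, beside a median of 0.02 over those 13599 genes. Tyr, Oca2, Slc45a2 and Best1 were below 1 in both libraries and could not pass 2-fold with 1 added. Each of them was on the lower side. The 6 members with an FPKM of at least 1 had a median of 0.16, with 4 higher and 2 lower in IR12.

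That balance depended on the scale. Small RNAs took 68.0% of the summed FPKM in CTRL and 46.3% in IR12, and bringing both libraries to the same sum, the TPM scale, raised every gene of IR12 by up to 0.65. On that scale the median over all 13599 genes was 0.59, with 20.7% at least 2-fold higher and 3.21% at least 2-fold lower, and the median over those 6 members was likewise 0.59, whereas over all 10 it was 0.22. Dct and Ttr were then the 2 members past 2-fold, with log2 ratios of 1.08 and 1.13. Scaling to the same sum without small RNAs gave a shift of -0.10 and left 0 members past 2-fold.

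The depth behind these values was read from the smallest steps in the table. At locus lengths from 900 to 1000 bp, the lowest repeated value, taken as 1 read, was worth 0.0649 FPKM per kb of effective length in CTRL and 0.0380 in IR12. Taken so, a given FPKM rested on 1.71-fold more reads in IR12. The ratio differs from that of the reads sequenced from each library, and the reason was not tested. The values may have been split between transcripts or rescaled before deposit, so reads per kb and the intervals built on them are approximate. Transcript lengths are not listed, so depths are stated as reads per kb, and 95% intervals of the log2 ratio with nothing added were computed for an assumed 1 kb and 4 kb. They cover counting error only and say nothing of differences between animals.

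**Figure D2:**
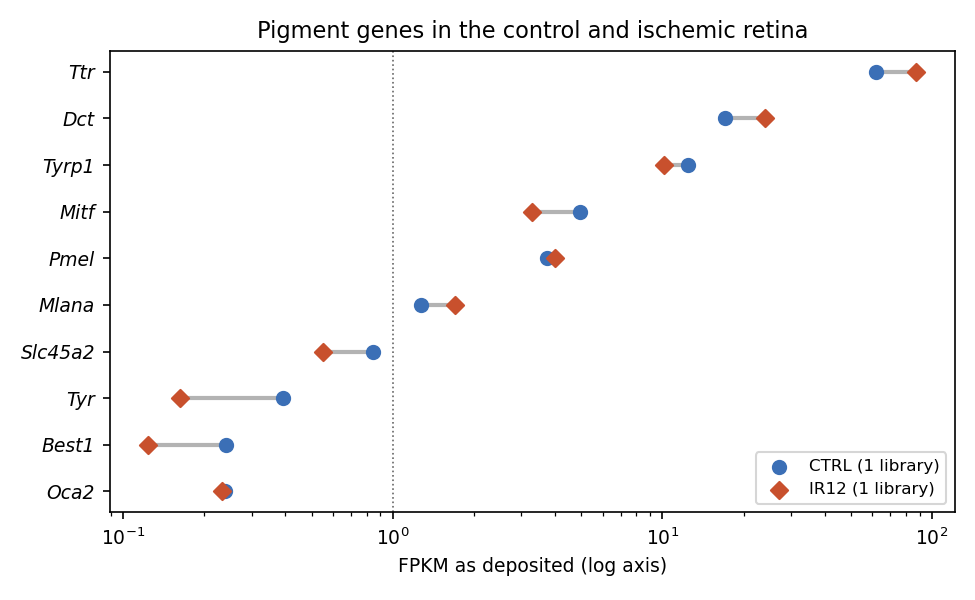
FPKM of the 10 members on a log axis, with 1 circle for CTRL, 1 diamond for IR12 and a bar joining them. Ttr is the highest at 61.8 and 87.4, and Tyr, Best1, Oca2 and Slc45a2 lie below 1 in both libraries.

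The plot of member levels shows a wide spread within each library. The highest member exceeded the lowest 259-fold in CTRL and 706-fold in IR12. Ttr, Dct and Tyrp1 stood in this order at the top in both libraries, and Mlana followed by Slc45a2 stood just above the bottom 3. Mitf was above Pmel in CTRL and below it in IR12, and those bottom 3 were Tyr, Best1 and Oca2 in differing order. With 1 library per group, which neighbours in that order differ beyond animal-to-animal spread cannot be told.

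Among the melanin enzymes, Dct (ENSRNOG00000008671, chr15:103208258-103244494 on rn6), which converts dopachrome to a carboxylated indole, was at 17.0 FPKM in the CTRL retina and 24.0 in the IR12 retina. The log2 ratio of Dct was 0.47, and with nothing added it was 0.49 with an interval at 1 kb from 0.28 to 0.71. It rested on 262 reads per kb in CTRL and 630 in IR12 and stood at the 66.9 and 74.8 percentiles of genes listed above 0. Tyrp1 (ENSRNOG00000029318, chr5:98387291-98406083), which acts on the indole that Dct makes, was at 12.4 FPKM in the CTRL retina and 10.2 in the IR12 retina. Its log2 ratio was -0.26, but 0.33 on the TPM scale, and with nothing added it was -0.29 with an interval from -0.56 to -0.01. Dct was thus higher and Tyrp1 slightly lower in IR12 as deposited, and the Dct to Tyrp1 ratio within a library, which no scaling alters, was 1.37 in CTRL and 2.36 in IR12.

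Tyr (ENSRNOG00000016421, chr1:151012598-151106802), the enzyme that starts melanin synthesis, was far below its relatives, with 0.392 FPKM in CTRL and 0.162 in IR12. Its locus is shared with copies of the small RNA U7, listed at 0. Tyr rested on 6.04 and 4.26 reads per kb. Without a pseudocount Tyr was 2.42-fold lower in IR12, with an interval from -3.63 to 0.72 on the log2 scale at 1 kb and from -2.26 to -0.31 at 4 kb, while the ratio with 1 added was -0.26. A difference in Tyr could therefore be told from counting error only under the longer assumed length. Tyr, Tyrp1 and Dct encode related proteins and share the 9 promoter letters above. Their levels in 1 library spanned from below 1 to above 10, and any link to those letters was not tested.

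Of the melanosome matrix and membrane genes, Pmel (ENSRNOG00000023085, chr7:3133506-3170146), which forms the fibrils that melanin is laid on, was at 3.74 FPKM in the CTRL retina and 4.01 in the IR12 retina. With a log2 ratio of 0.08, its interval held 0 at both assumed lengths. The listed Pmel locus is shared with Dgka, at 4.67 and 4.73, so reads of these neighbours may not be fully separated. Mlana (ENSRNOG00000036608, chr1:247869756-247884442), a melanosome membrane protein that assists Pmel maturation, was at 1.27 FPKM in the CTRL retina and 1.70 in the IR12 retina. The log2 ratio of Mlana was 0.25, on 19.6 and 44.6 reads per kb, and its interval held 0 at 1 kb and not at 4 kb.

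Both melanosome transporters were low. Slc45a2 (ENSRNOG00000018759, chr2:60966789-60999398), which helps to keep melanosomes from becoming acidic, was at 0.846 FPKM in the CTRL retina and 0.552 in the IR12 retina. For Slc45a2 the log2 ratio was -0.25, and 0.01 on the TPM scale. Oca2 (ENSRNOG00000014465, chr1:114679537-114987433), a chloride channel component of the melanosome, was at 0.239 FPKM in the CTRL retina and 0.233 in the IR12 retina. It rested on 3.68 and 6.13 reads per kb, so a difference was not detectable at this depth.

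Mitf (ENSRNOG00000008658, chr4:130172727-130425532), the transcription factor of pigment cells, was at 4.94 FPKM in the CTRL retina and 3.28 in the IR12 retina. Its log2 ratio was -0.47, but 0.04 on the TPM scale, and with nothing added it was -0.59 with an interval at 1 kb from -1.06 to -0.13. The table gives 1 value for Mitf, which has several promoters used by different cell types, so the forms cannot be separated here.

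The pigment epithelium channel was among the 3 lowest members and the carrier was the highest. Best1 (ENSRNOG00000020346, chr1:226030875-226049929), a chloride channel of the RPE basolateral membrane, was at 0.242 FPKM in the CTRL retina and 0.124 in the IR12 retina. Its locus is shared with Fth1, a ferritin subunit at 427 and 422, and it rested on 3.72 and 3.26 reads per kb, too few to show a difference. Ttr (ENSRNOG00000016275, chr18:15532963-15540177), which carries thyroid hormone and the retinol-binding protein complex, was at 61.8 FPKM in the CTRL retina and 87.4 in the IR12 retina. Its log2 ratio was 0.49, the highest of the 10, and with nothing added it was 0.50 with an interval from 0.39 to 0.61 at 1 kb. Ttr is made by RPE and ciliary epithelium and is not a melanin gene, yet it made up 60.1% of the members' summed FPKM in CTRL and 66.4% in IR12.

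**Figure D3:**
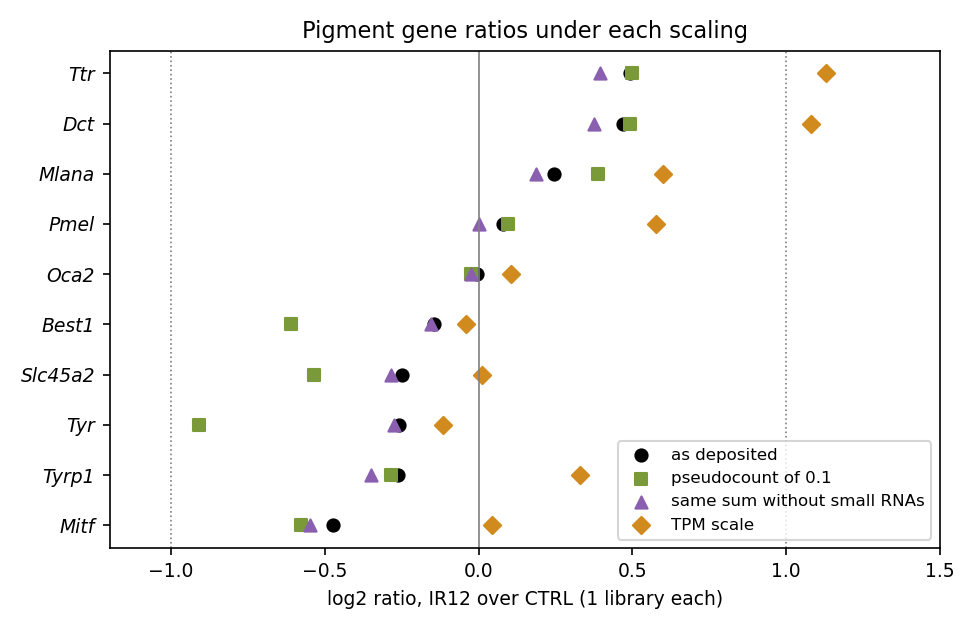
Log2 ratios of the 10 members, IR12 over CTRL, with 1 library each, under 4 settings shown by symbol, and dotted lines at 2-fold. Dct and Ttr pass 2-fold on the TPM scale at 1.08 and 1.13, and Tyr ranges from -0.91 with a pseudocount of 0.1 to -0.12 on the TPM scale.

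Added over the members, FPKM was 102.9 in CTRL and 131.6 in IR12, 1.28-fold higher. Without Ttr the sums were 41.1 and 44.2, 1.08-fold higher. Dct, at 17.0 and 24.0, differed by more than these sums did, so the remaining members together were lower in IR12. The plot of member ratios shows that Mitf, Tyrp1, Oca2 and Slc45a2 change sign between the deposited and the TPM scale, whereas Ttr, Dct, Mlana and Pmel were higher, and Tyr and Best1 lower, in IR12 under each of the 4 settings drawn.

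The wider melanosome pathway was read from a list of 32 genes for pigment transport, lysosome-related organelle assembly and MITF relatives. With 25 of them at 1 FPKM or more in either library, 3 passed 2-fold upward in IR12 and 0 downward, and the median was 0.27. Of all genes, 6.56% were at least 2-fold higher. On the TPM scale 5 of the 25 were at least 2-fold higher and 0 lower, with a median of 0.71. All genes had 20.7% at least 2-fold higher there and a median of 0.59. The summed FPKM of the list was 524.5 in CTRL and 1119 in IR12. Most of that difference was Cd63, the most abundant gene over both libraries together but below Myo5a in CTRL, a tetraspanin of melanosomes, late endosomes and lysosomes in most cells, at 64.9 in CTRL against 573 in IR12, with a log2 ratio of 3.12. Gpnmb, a Pmel relative that macrophages also make, was at 2.22 and 17.6, and Rab32, a small GTPase of organelle transport, was at 5.10 and 12.9. Most of the remaining genes serve lysosome-related organelles in many cell types. Bloc1s3 was listed at 0 in both libraries. Among genes nearer to pigment cells, chosen after their values were seen, Gpr143, the ocular albinism receptor, was at 0.0921 in CTRL and 0.647 in IR12. Slc24a5, a melanosome cation exchanger whose locus is shared with Myef2, was at 0.815 and 1.72. Rab38, which sorts tyrosinase to melanosomes, was at 0.887 and 0.611. Mlph, which links melanosomes to myosin, was at 0.932 and 0.542. These 4 genes, all below an FPKM of 2, differed in both directions as deposited. Rab38 rested on 13.7 reads per kb in CTRL and 16.1 in IR12, and Mlph on 14.4 and 14.3. On the TPM scale the log2 ratios of Rab38 and Mlph were 0.04 and -0.05. Gpr143 rested on 1.42 reads per kb in CTRL and 17.0 in IR12, and Slc24a5 on 12.6 and 45.4.

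RPE markers that have no part in melanin were read from a separate list. Of 20 such genes, 17 had an FPKM of at least 1 in either library, 0 were at least 2-fold higher and 8 were at least 2-fold lower in IR12, with a median of -0.94. Counting differences of any size, 4 were higher and 13 lower. All genes had 6.56% at least 2-fold higher and 6.12% at least 2-fold lower. The summed FPKM of the marker list was 268 in CTRL and 86.5 in IR12. Much of it was Efemp1, Rrh and Trpm3, the last at 46.3 and 23.6, and the cells of origin were not tested. The most abundant over both libraries together, though below Trpm3 in IR12, was Efemp1, an extracellular matrix protein, which was at 81.8 in CTRL and 16.7 in IR12. Rrh, the opsin relative peropsin, was at 59.1 and 8.84, and Slc6a13, a GABA and taurine transporter, was at 17.0 and 1.82. These were among the largest differences of the list. Serpinf1, the secreted factor PEDF, was at 2.94 and 0.311, and Enpp2, which makes lysophosphatidic acid, was at 22.3 and 9.74. Rpe65, the visual cycle isomerase, chosen after its values were seen, was at 11.1 in CTRL against 4.88 in IR12, with a log2 ratio of -1.04 that became -0.46 on the TPM scale. Enpp2 likewise no longer passed 2-fold there, at -0.51. On the TPM scale 4 of the markers were at least 2-fold lower and 1, Krt18, at least 2-fold higher. Their median was -0.35 beside 0.59 for all genes, of which 3.21% were at least 2-fold lower and 20.7% higher. Other markers, chosen after their values were seen, went the other way or were nearly level. Rdh5, a retinol dehydrogenase of the visual cycle, was at 0.739 in CTRL and 1.30 in IR12. Stra6, the receptor for retinol-binding protein, was at 1.10 and 1.74, and Slc16a8, a lactate transporter, was at 0.279 and 0.654. Lrat, which makes retinyl esters, was at 2.01 and 1.77. The list was thus mostly but not uniformly lower in IR12.

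**Figure D4:**
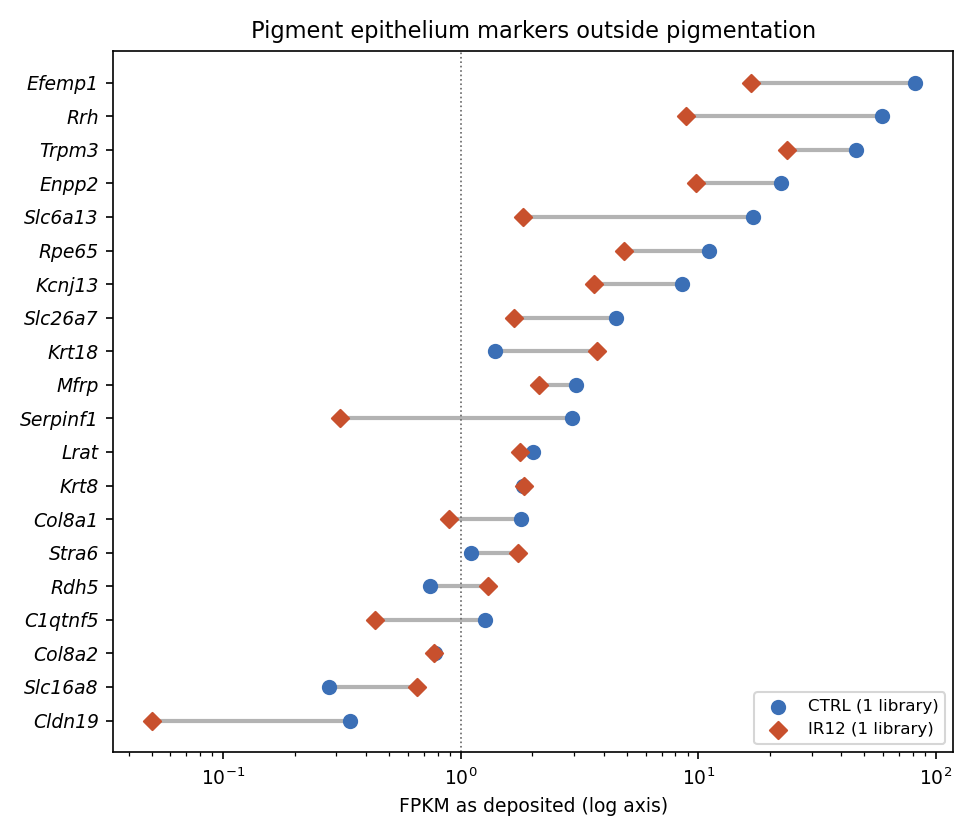
FPKM of 20 RPE markers outside pigmentation on a log axis, with 1 circle for CTRL, 1 diamond for IR12 and a bar joining them, and with Cldn19, listed at 0 in IR12, drawn at the left edge. Efemp1, Rrh and Slc6a13 lie far lower in IR12 and Krt18 lies higher, at 1.39 and 3.75.

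Ratios within a library, which do not depend on scaling, set these genes against the melanin enzymes and were chosen after the values were seen. Rpe65 per Tyrp1 was 0.895 in CTRL and 0.480 in IR12, 1.86-fold lower. Rpe65 per Dct was 0.652 and 0.204, 3.20-fold lower, and Rrh per Tyrp1 was 4.77 and 0.870. Ttr per Rpe65 was 5.58 in CTRL and 17.9 in IR12. Other pairs were level or went the other way, with Rpe65 per Tyr at 28.3 and 30.1 and Lrat per Tyrp1 at 0.162 and 0.175. Of the 13 RPE markers with an FPKM of at least 1 in both libraries, 9 were lower in IR12 per Tyrp1, 11 per Dct and 4 per Tyr, the enzyme with the fewest reads. The enzymes also differed among themselves, with Tyr per Tyrp1 at 0.0316 in CTRL and 0.0159 in IR12. In whole tissue, fewer cells of a type and less RNA per cell cannot be told apart.

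Genes of the RPE that Müller glia or retinal neurons also express differed in both directions. Of 10, 9 had an FPKM of at least 1, with 1 at least 2-fold higher, 2 lower and a median of -0.22, and their sum was 1333 in CTRL and 972 in IR12. On the TPM scale, which lifts all genes of IR12, 3 were at least 2-fold higher and 1 lower. The median there was 0.42, above 0 but still below the 0.59 of all genes. Of all genes, 20.7% were at least 2-fold higher and 3.21% lower on that scale, against 6.56% and 6.12% as deposited. Rdh10, a retinol dehydrogenase, was at 19.8 and 78.5. Rlbp1, the retinal-binding protein CRALBP, was at 126 and 26.8, and Timp3, a metalloproteinase inhibitor whose locus is shared with Syn3, was at 24.2 and 10.7. Cst3, the most abundant, was at 620 and 398. Otx2, which retinal neurons and RPE use, was listed at 0 in both libraries, so absence of a value is not taken as absence of expression.

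Most Müller glia markers were also lower in IR12. Of 7, 6 were at least 2-fold lower and 0 higher, with a median of -1.77 and a sum of 1923 in CTRL and 662 in IR12. Over all genes, 6.12% were at least 2-fold lower and 6.56% higher. Glul, glutamine synthetase and the most abundant over both libraries together, though below Vim and Car2 in IR12, was at 754 and 126. Aqp4, a water channel, was at 48.0 and 4.16, and Kcnj10, Car2 and Dkk3 followed at log2 ratios of -2.46, -1.77 and -1.67. Vim, an intermediate filament of glia and many other cells, was the exception at 121 in CTRL against 221 in IR12. Its log2 ratio was 0.86. On the TPM scale 5 markers were at least 2-fold lower and 1 higher, beside 3.21% and 20.7% of all genes. The part of Müller glia in the lower RPE marker values was not tested. Rod genes marked both libraries as retina, with 11 of 12 present, 0 past 2-fold and a median of 0.00. Single rod genes differed in both directions as deposited, from Rcvrn at -0.92 to Sag at 0.92. On the TPM scale 1 rod gene, Sag, was at least 2-fold higher and the rod median was 0.65.

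Tissues next to the retina were read from their own markers. Most melanocyte markers were listed at or near 0, with Pax3 at 0 in both, Mc1r at 0 and 0.252 and Erbb3 at 0.0566 and 0.106. Sox10, whose locus is shared with Polr2f and other genes, was at 0 and 0.0672. Kit, the 1 gene of these 5 with an FPKM of at least 1, was at 5.65 and 5.03, and the 5 summed to 5.70 and 5.46. Choroid and sclera stroma genes were mostly at low or 0 values. Of the 10, 2 had an FPKM of at least 1, with 0 at least 2-fold higher and 1 lower. All genes had 6.56% higher and 6.12% lower by that measure. The stroma median was -0.76, and the list summed to 6.47 in CTRL and 3.13 in IR12. On the TPM scale 0 were at least 2-fold lower, beside 3.21% of all genes, and the stroma median was -0.34. Col5a1, the most abundant, was at 2.68 and 2.16, and Fmod was at 2.52 and 0.432. Col1a2, Kera, Mfap4 and both entries of Ogn were listed at 0 in both, which as for Otx2 is not read as absence, and Col1a1 was at 0.0693 and 0.00676.

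Markers of ciliary and iris epithelium, which has pigmented and non-pigmented layers, were higher in CTRL than in IR12. For the counts below, all genes had 6.12% at least 2-fold lower and 6.56% at least 2-fold higher. Both of the 2 genes found of 3 were at least 2-fold lower, Optc, a proteoglycan of the non-pigmented ciliary epithelium, at 15.6 in CTRL and 1.29 in IR12, and Wfdc1 at 4.06 and 0.685, with a sum of 19.6 and 1.97. Lens genes, which mark tissue from the front of the eye without pigment, were likewise lower. Of 21 with an FPKM of at least 1, 19 were at least 2-fold lower and 0 higher, with a median of -2.63 and a sum of 4566 in CTRL and 632 in IR12, 7.22-fold lower. The most abundant, Cryba1, was at 1614 and 196, Cryaa was at 1118 and 124, Crybb2 was at 418 and 47.0 and Grifin was at 58.6 and 5.61. Several crystallins are also made by retinal cells, and the 8 lens genes outside the crystallin families had a median of -2.17. Without Ttr, which ciliary epithelium also makes, the pigment genes summed to 41.1 in CTRL and 44.2 in IR12. That higher sum rested on Dct. Of the 10, 6 were lower in IR12 as deposited, among them the 4 below an FPKM of 1 in both libraries. The part of carried-over ciliary, iris or lens tissue in the pigment gene values was not tested, and injury and dissection cannot be told apart with 1 retina per group.

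**Figure D5:**
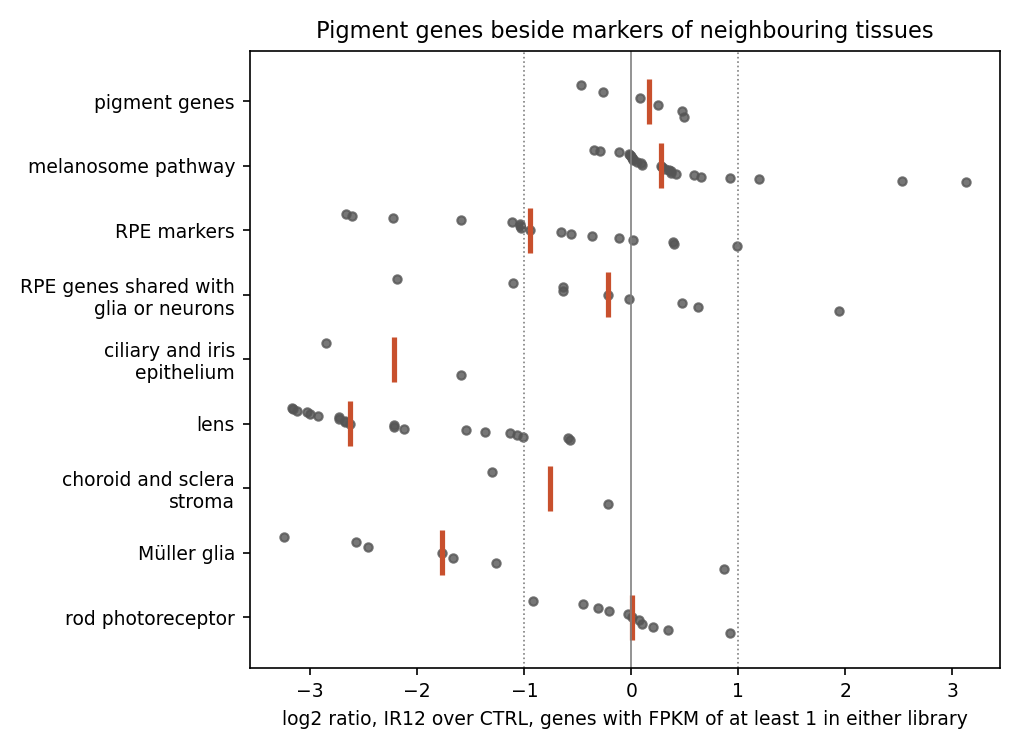
Log2 ratios, IR12 over CTRL, of the genes with an FPKM of at least 1 in either library, 1 dot per gene, with the median of each list as a red bar and dotted lines at 2-fold. The 6 pigment genes shown have a median of 0.16, beside -0.94 for RPE markers, -2.63 for lens, -1.77 for Müller glia and 0.00 for rods, all as deposited.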

How the data were processed

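The FPKM values were deposited by the authors as 1 table of gene IDs, symbols, loci and the columns CTRL and IR12. The submitters' processing notes name STAR 2.5.2b, Cuffdiff 2.2.0 and the rat build rn6 without giving their roles. Reads were shortened to a common length before mapping, per the study's methods. Listed loci, which start at 0-based positions, were raised by 1.

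Ratios were log2((IR12 + 1)/(CTRL + 1)). Alternatives were a pseudocount of 0.1, the TPM scale, the same sum without small RNAs, centring on the median gene, and minimum FPKM of 5 or none. No p-value was computed, and no list was tested as a set. FPKM are not counts, so the counting intervals rest on approximate read numbers. Python 3.11.15 was used with pandas 2.3.3, numpy 2.4.6, matplotlib 3.10.9 and scipy 1.17.1, and the code was tested on simulated data.

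The members and the 12 companion lists were chosen with earlier results of these data known. Named genes were every member and, from each list, the gene with the highest FPKM summed over both libraries, up to 5 genes with the largest ratio past 2-fold at an FPKM of at least 1, and genes at 0 in both libraries where 5 or fewer. Values of some genes that this rule names are not reported here.

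Depth was read from the lowest value repeated at least 3 times at a given locus length, which could be done at 4 lengths in both libraries. Accepting 2 repeats was also tried and let in values of several reads, so that no usable depth resulted. The 95% Clopper-Pearson intervals, which the planned design did not include, were added after the data were seen. So were the alternatives that leave out shared loci, crystallins or genes below an FPKM of 1. The limit from which a change of sign was counted was lowered to 0.05 after the values were seen, so that the member median would count as changed. That raised the number of alternative values counted as changed. Identity between the proteins of Tyr, Tyrp1 and Dct was not analysed here.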

Additional observations from a re-analysis of the deposited data

How the results depend on the processing

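Of 64 alternative values for 11 results, 53 stayed within 1.5-fold of the reported value, and among them only the rod median, near 0, changed sign. The other 11 did not stay so, and 0 reversed a call. Among those 11, the member median and the median of RPE genes shared with glia or neurons turned from below 0 to above 0. On the TPM scale the member median was 0.22, 2 members were at least 2-fold higher, the log2 ratio of their summed FPKM was 1.0, and the list medians were -0.35 for RPE markers, 0.42 for RPE genes shared with glia or neurons, -2.03 for lens, 0.65 for rods and -1.13 for Müller glia. That scale lifts IR12 by construction. The member median was 0.47 with an FPKM of at least 5, which leaves few genes, and 0.16 with an FPKM of at least 1 in both libraries, an alternative chosen after seeing the data. With no minimum FPKM the stroma median was -0.15, since genes listed at 0 then entered, and with an FPKM of at least 5 no stroma gene was left to give a value. The member median otherwise lay between -0.15 and -0.01.

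No paired analysis was possible because there was 1 library per group, and for the same reason no replicate was left out. Depth limits Tyr, Oca2, Slc45a2 and Best1 most. Counting intervals held 0 for 6 of 10 members at an assumed 1 kb and for 3 of 10 at 4 kb.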

Other observations

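Markers of other tissues at the front of the eye and of blood were read in the same way, as values only. Beside the counts below, 6.56% of all genes were at least 2-fold higher and 6.12% at least 2-fold lower. Corneal genes were low in CTRL and higher in IR12, with 2 of 4 at an FPKM of at least 1 and both of those at least 2-fold higher. Krt12, a keratin of the corneal epithelium and the most abundant over both libraries together, was at 0.874 in CTRL and 12.5 in IR12, and Aldh3a1, a corneal crystallin enzyme, was at 1.68 and 7.61. Their list summed to 2.55 in CTRL and 20.8 in IR12, the opposite direction from the lens. Krt5 and Krt14, chosen after their values were seen, were listed at 0 in CTRL and at 0.481 and 0.233 in IR12. Both have listed loci shared with other keratins.

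Iris and ciliary muscle genes summed to 6.64 in CTRL and 5.56 in IR12. Of 3 with an FPKM of at least 1, 1 was at least 2-fold higher and 0 lower, with a median of -0.35 that became 0.13 on the TPM scale. Des, an intermediate filament of muscle, was at 0.296 and 1.81, and Myh11, smooth muscle myosin and the most abundant, was at 3.69 and 2.67. Acta2 was at 2.56 and 0.989, with a log2 ratio of -0.84 that passed 2-fold, at -1.29, with a pseudocount of 0.1. Blood genes summed to 39.8 in CTRL and 82.7 in IR12, with 6 of 10 found. Of the 3 with an FPKM of at least 1, 2 were at least 2-fold higher and 0 lower, beside 6.56% and 6.12% of all genes. Hba-a3 was at 11.4 and 30.0, Hba-a2 was at 6.77 and 17.1, and Hbb, the most abundant, was at 20.4 and 35.1. Of the 3 below an FPKM of 1, Hba-a1 was at 0.859 and 0.168. Alas2 was at 0.334 and 0.196, on 5.15 and 5.15 reads per kb. Slc4a1 was at 0.0455 and 0.0266, on 0.70 and 0.70 reads per kb. These reads were too few to show a difference. The part of any of these tissues in the pigment gene values was not tested.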
